A study of Mus musculus with 16 samples.

Results

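At 1282 of 45037 probe sets (2.85%), the cell line with both hairpins did not show the summed changes of the lines with a single hairpin. The account below describes that interaction gene by gene. The data were 16 expression arrays of mRNA from CT26, a murine colon carcinoma line from the BALB/c strain, with 4 arrays for each of 4 stably transfected lines. Control cells carried the empty pU6-m3 vector, shSep15 cells a hairpin against the mRNA of Sep15 (gene symbol Selenof), shTR1 cells a hairpin against thioredoxin reductase 1 (TR1, gene symbol Txnrd1), and shTR1/shSep15 cells both hairpins. For each probe set (a group of array probes for 1 transcript) the interaction was the mean log2 signal of shTR1/shSep15 cells, minus that of shSep15 cells, minus that of shTR1 cells, plus that of control cells, so that it is 0 where the changes from control add up on the log2 scale. It was tested at 45037 probe sets, which hold 18193 genes with 1 symbol. The genes of main interest were moved alike by each single hairpin, by at least 1 on the log2 scale, and lay within 0.5 of control with both hairpins. There were 84 such probe sets, and 78 of them named 68 genes.

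Sep15 is a selenoprotein of the endoplasmic reticulum that binds the glycoprotein-folding sensor UGGT. TR1 is the cytosolic selenoenzyme that keeps thioredoxin reduced with electrons from NADPH. Selenoproteins carry selenocysteine, and each of these proteins has been tied to the growth of tumour cells, so the line with both hairpins asks whether the loss of 1 changes what the loss of the other does. All 4 lines shared the vector. How many clones the arrays of a construct stand for is not given in the sources used here, so the construct and the clone cannot be told apart.

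The hairpins were drawn from the target stretches below, shown because each single line and the line with both carried the same sequence, written 5′ to 3′ as given in the labels.
Sep15 target: acagaagagttccatttaa
TR1 target: atcgctctgacaagcttattag
The Sep15 target is 19 bases long with 6 G or C bases, and the TR1 target is 22 bases long with 9.

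The targeted genes were read first, because they check the labels. Selenof signal in control cells was 11.56, 10.78, 11.57 and 11.42 (log2, replicates 1 to 4), against 8.02, 8.06, 8.29 and 8.15 in shSep15 cells and 7.86, 7.34, 7.77 and 7.66 in shTR1/shSep15 cells. It fell by 3.20 (SE 0.19, adjusted p = 1.11e-06) with the Sep15 hairpin and by 3.68 with both (adjusted p = 4.86e-07), and shTR1 cells, at 11.57, 11.73, 11.71 and 12.36, lay at or above most control arrays. Txnrd1 at its brightest probe set was 10.39, 9.45, 9.90 and 10.10 in control cells and 7.59, 7.18, 7.73 and 7.91 in shTR1/shSep15 cells. The shTR1 arrays split on this gene. Replicates 1 and 3 read 7.84 and 7.89, close to the cells with both hairpins, while replicates 2 and 4 read 10.57 and 9.71, within or above the control range. At the next brightest of its 3 probe sets, shTR1 replicates 1 and 3 read 4.62 and 4.76, replicate 2 5.24 and replicate 4 5.58, against 5.51 to 6.58 in control, so there only replicate 4 reached the control range. The shTR1 difference was therefore −0.96 (SE 0.49, adjusted p = 0.455). For this reason the fit without the arrays labelled shTR1 replicates 2 and 4 is given below for the totals and for many of the genes. The interaction at Selenof was −0.98 (adjusted p = 0.0719) and that at Txnrd1 −1.36 (adjusted p = 0.357).

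**Figure D1:**
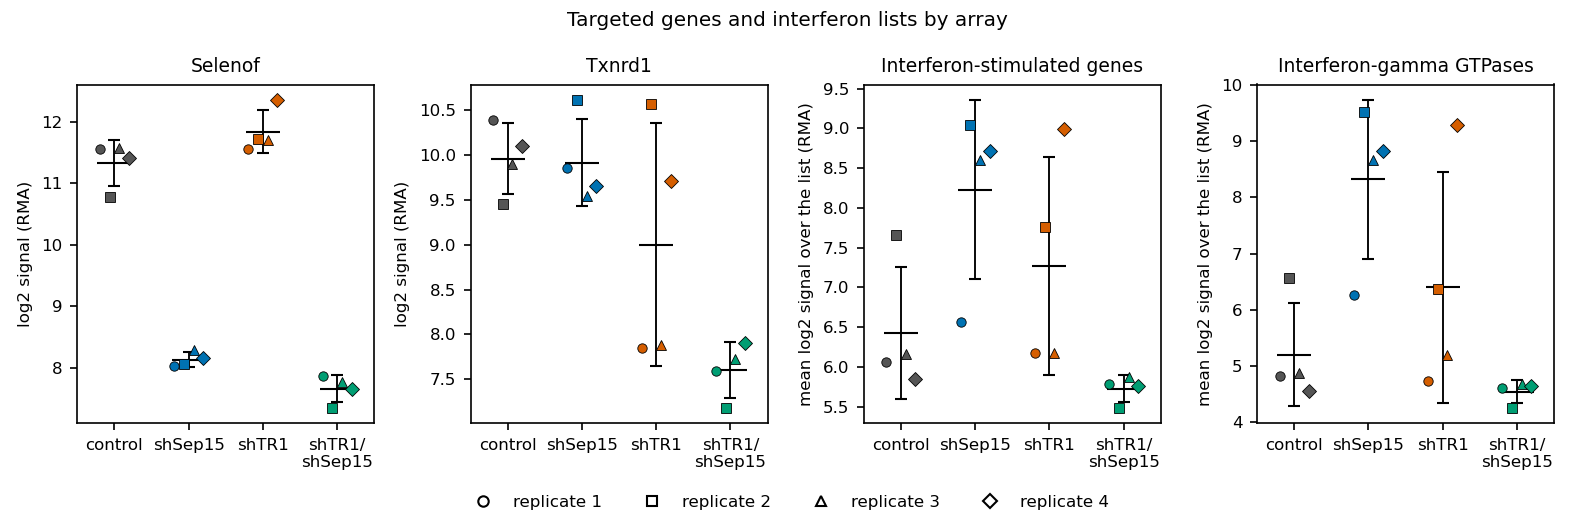
Log2 signal of Selenof and Txnrd1 and the mean log2 signal of 2 interferon gene lists in each of the 16 arrays (marker shape gives the replicate, bar and whiskers the mean ± SD, n = 4). The shTR1 arrays with Txnrd1 near control, replicates 2 and 4, are also the shTR1 arrays with the highest interferon means.

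Marker genes were read against the array medians, which ran from 4.45 to 4.58. Of 9 colon epithelium markers, 3 (Cdh1 at 2.59, Vil1 at 3.67 and Krt19 at 4.31) were under them in the control mean and 6 above, from Krt8 at 4.89 to Krt20 at 8.31. Of 9 fibroblast and mesenchymal markers 6 were above, with Vim at 12.97. Of 7 leukocyte markers 3 were under and 4 above, from 2.79 for Ptprc to 5.59 for Csf1r, and of 5 endothelial markers 4 were under and 1 above. These are signals of different probe sets and do not order the genes by abundance. The upper quartiles were on average 6.49 in control, 6.60 in shSep15, 6.65 in shTR1 and 6.55 in shTR1/shSep15 cells. The single knockdowns thus had slightly higher mean upper quartiles than the other lines, although arrays of the lines overlapped. A fit with the upper quartile as a covariate, added after seeing the data, is given beside the main fit. The covariate differs between the lines as the contrast does, so that fit cannot measure a part of the quartiles in the interactions. Such a part was not tested.

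Of the probe sets tested, 1282 (2.85%) passed an adjusted p of 0.05 for the interaction by limma. The interaction was above 0 at 331 (0.735%) and below 0 at 951 (2.11%), while its median over all probe sets was 0.06. Counted as genes, each at its probe set of highest mean signal, 692 of 18193 passed (3.8%), with 191 above 0 (1.05%) and 501 below 0 (2.75%). Against control, 885 probe sets (1.97%) differed in shSep15 cells, 81 (0.18%) in shTR1 cells and 11 (0.0244%) in shTR1/shSep15 cells. The count depended on the arrays. Without shTR1 replicates 2 and 4, 519 probe sets passed, and 473 of those were among the 1282. Called genes chosen by rule and named below that did not pass in that fit, beside those for which it is stated, were Igtp, Gbp2, Casp6, Rab31, Anxa8, Mfap5, Nefm, Prkx, Clu, Col6a1, Selenos, Sephs2, Bbs4, Fzd7, Ahnak, Yipf6 and Bank1, each with the same sign as before. Parp11, Ggps1 and Fam199x, also named below as members of the class, did not pass there either (adjusted p = 0.0928, 0.0577 and 0.112). These verdicts hold for the probe set described. At its other probe set in the class, Anxa8 passed in that fit (2.33, adjusted p = 0.0323). With the upper quartile of each array as a covariate, 714 passed, 53.6% of them below 0 in place of 74.2%. Called genes chosen by rule and named below that did not pass with this covariate were Gbp7, Gbp2, Igtp, Bst2, Dtx3l, Trim30a, Parp14, Tapbp, B2m, Dppa4, Col3a1, Clu, Casp6, Fadd, Rab31, Ahnak, Bbs4, Yipf6, Bank1 and Selenos, each with its sign kept. Leaving out single arrays moved the total by over 1.5 times in 8 cases. It was 2340 without control replicate 2, 745 without control replicate 4, 656 and 660 without shSep15 replicates 3 and 4, 823 without shTR1 replicate 4, and 791, 734 and 833 without shTR1/shSep15 replicates 1, 2 and 4.

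At most called probe sets the single knockdowns lay to 1 side of control and the line with both hairpins nearer to it, though few of the single differences passed the test themselves. At 1245 of the 1282 (97.1%) the single knockdowns were both above or both below control, against 75.1% of all probe sets, and at 1051 (82%) each was farther from control than the line with both hairpins, against 36.2% of all. The share among the called probe sets follows in part from the contrast itself, which grows when the singles move together. The shSep15 difference was the larger of the single differences at 931 (72.6%). Only 60 probe sets (0.133%) passed for both single knockdowns in 1 direction, 39 higher and 21 lower, and all 60 also passed for the interaction. With both hairpins, 29 of the 60 lay within 0.5 of control. At 173 probe sets (0.384%) the 8 arrays of single knockdowns were all above or all below the 8 other arrays.

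**Figure D2:**
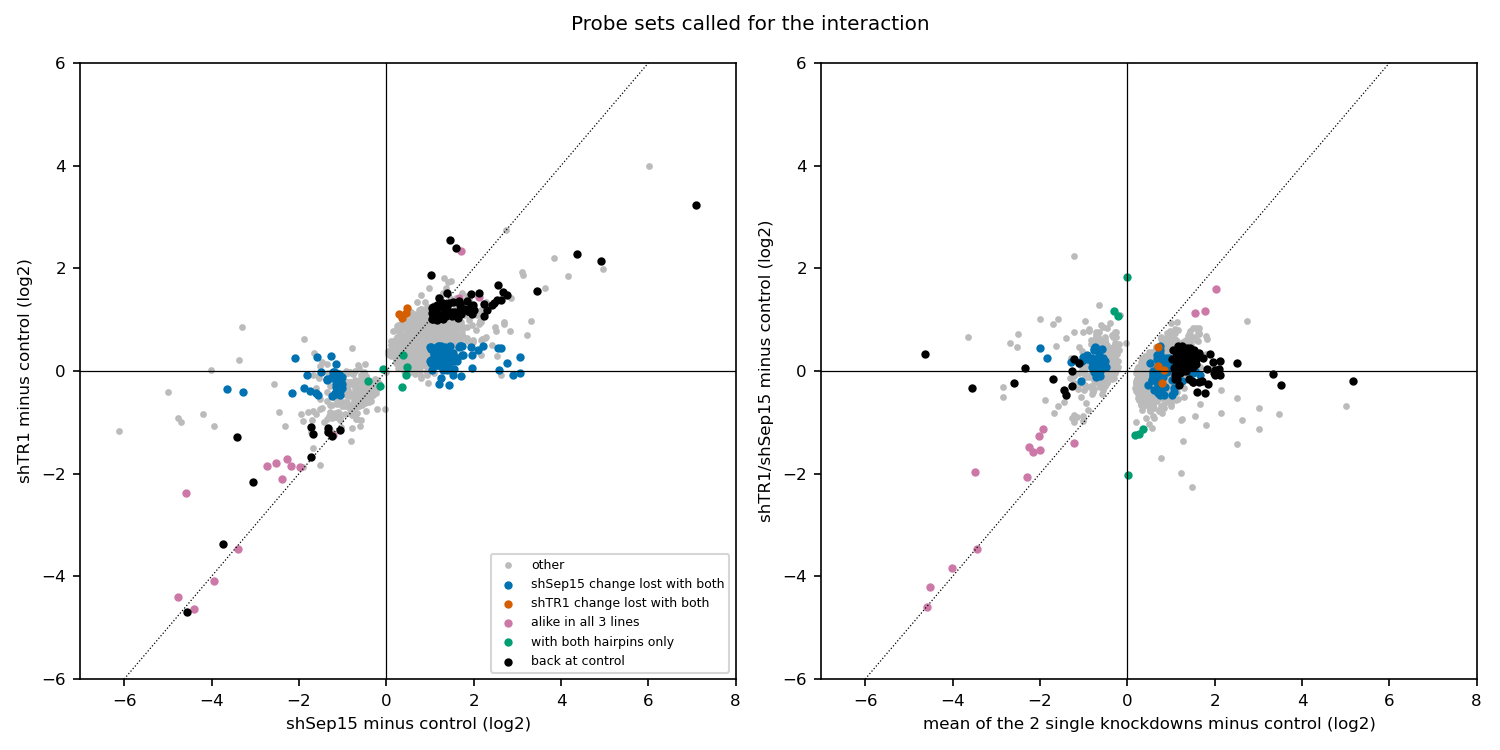
The 1282 probe sets called for the interaction, with the shTR1 difference from control against the shSep15 difference (left) and the difference with both hairpins against the mean of the single differences (right), all on the log2 scale and coloured by class. Points lie mostly in the lower left and upper right of the left panel and near a difference of 0 with both hairpins in the right panel, and the dotted line marks equal values.

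Among the 84 probe sets back at control, 73 were higher and 11 lower in the single knockdowns. Since the class was drawn on these differences, its values are a description. The size of the interaction had a median of 2.59 and ran from 1.68 to 10.54, with adjusted p from 1.19e-11 to 0.0494. The median size of the difference from control was 1.53 in shSep15 cells, 1.23 in shTR1 cells and 0.20 with both. Only 11 of the 84 passed for both single knockdowns on their own. Of genes described below, the shTR1 difference did not pass at Gata2, Tmem119, Col3a1, Dppa4, Kif1b, Gbp7, Irgm2, Dtx3l, Eif2ak2, Sike1, Eif4g3 or Ccnb1ip1. There its adjusted p ran from 0.079 to 0.478. Neither single difference passed at Anxa8, Bst2, Ifi207 or Dmxl2 (adjusted p = 0.0523 to 0.321). At the edges of the class, the smaller single difference of Zkscan1 was 1.00 just inside the bound and Rusc2 lay just outside it, while Fam199x lay 0.49 from control with both hairpins, inside, and Loxl4 0.51, outside. A further 971 called probe sets had singles on 1 side with at least 1 difference under 1, and both hairpins within 0.5 of control. With a bound of 1.5-fold for the singles and for the return, the class held 437 probe sets.

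The shTR1 arrays did not take part equally in the class. Replicate 2 lay beyond all 8 control and shTR1/shSep15 arrays, in the direction of the class, at 82 of the 84 probe sets and replicate 4 at 79, but replicate 3 at 68 and replicate 1 at 46. The shSep15 arrays did so at 78, 68, 84 and 84. Without shTR1 replicates 2 and 4, the interaction still passed at 49 of the 84 probe sets, and 26 stayed in the class, for 23 genes. With each array's upper quartile as a covariate, 54 passed and 20 stayed in the class, whose size was then 31. The sign of the interaction was unchanged at all 84 in both fits. The class held 153 probe sets without control replicate 2, 50 without control replicate 4, 164 without shTR1 replicate 1 and 53 without shTR1/shSep15 replicate 2. Because signals varied this much between arrays of 1 line, genes at which the single knockdowns never overlapped the other lines are described first, then those at which they did.

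**Figure D3:**
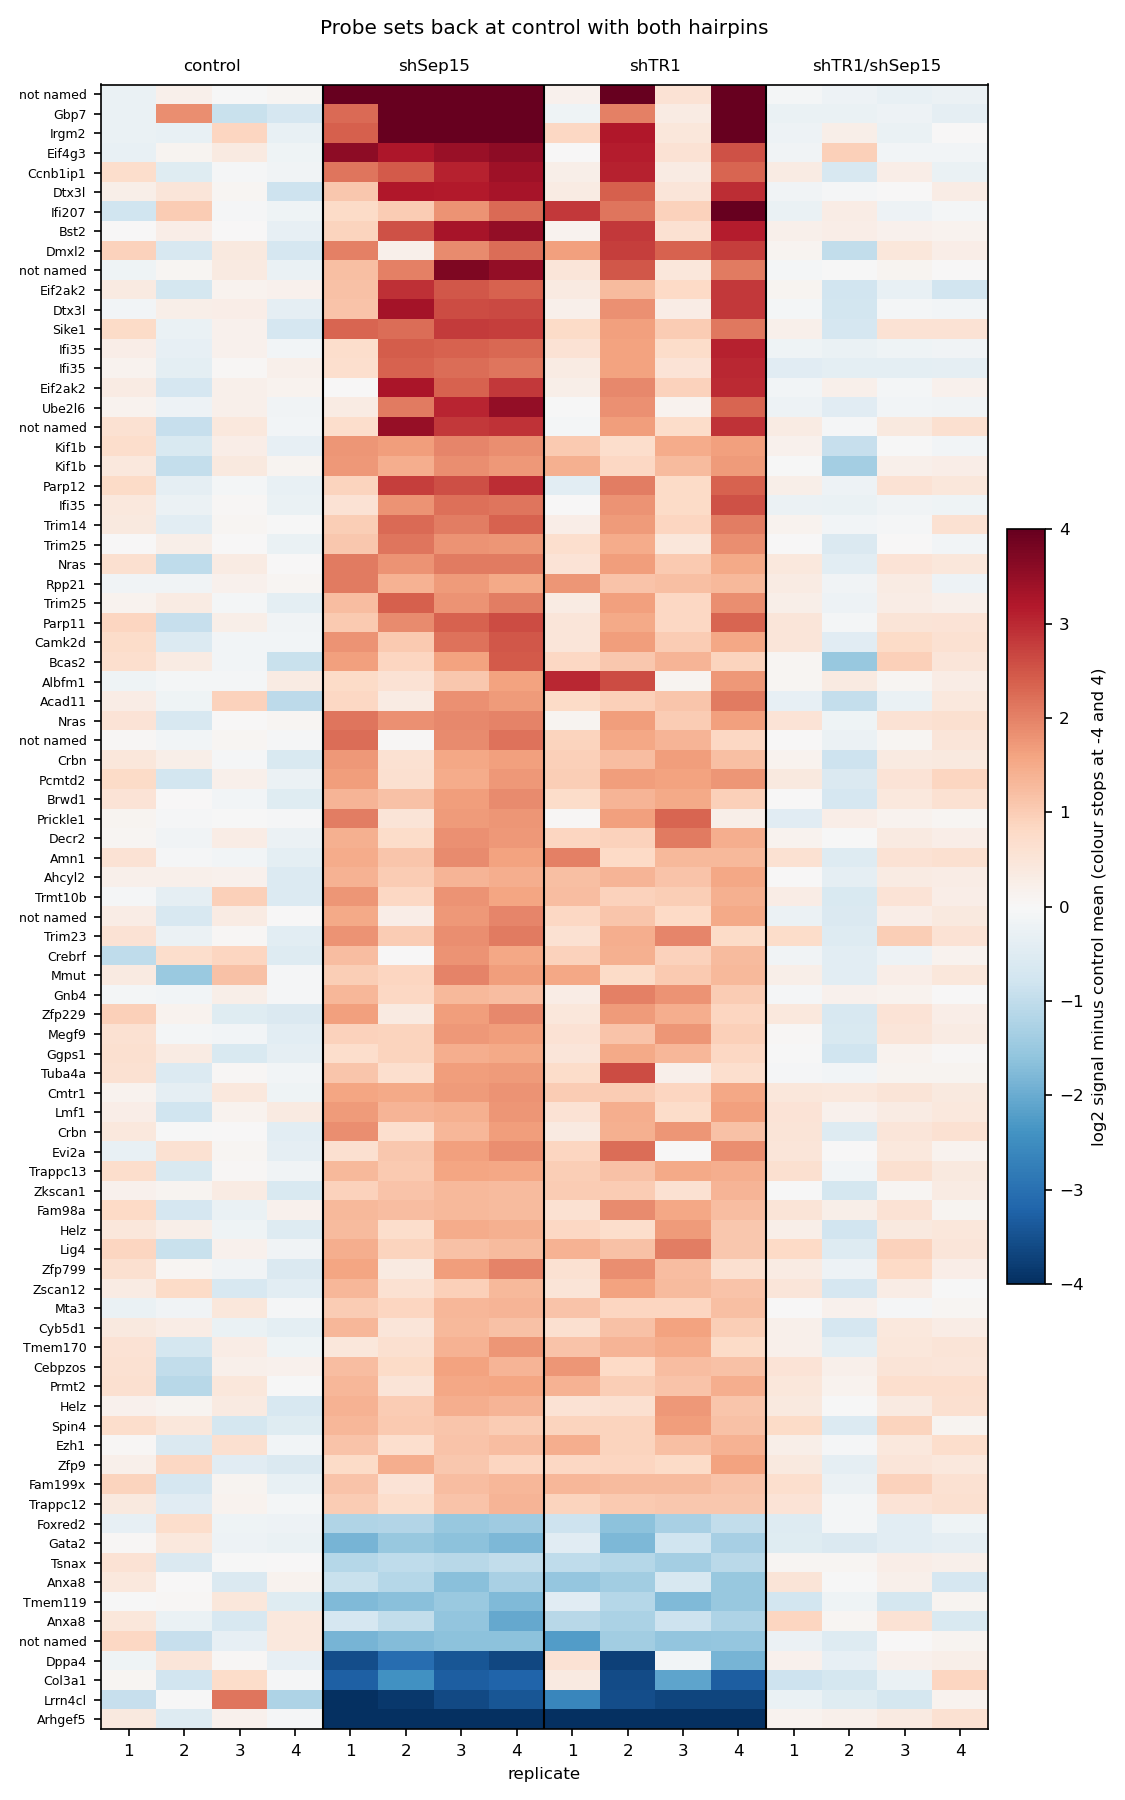
Log2 signal minus the control mean at the 84 probe sets back at control (rows, ordered by the interaction) in the 16 arrays (columns, by line and replicate). The single-knockdown columns are red or blue where the shTR1/shSep15 columns are pale, and shTR1 replicates 1 and 3 are paler than replicates 2 and 4 in the upper rows, which hold the interferon-inducible genes.

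Arhgef5, which encodes a guanine nucleotide exchange factor and lies on chromosome 6, had the lowest p of all probe sets. Its signal was 9.60, 8.72, 9.39 and 9.18 in control cells, 4.64, 4.92, 4.53 and 4.53 in shSep15 cells, 4.45, 4.51, 4.75 and 4.36 in shTR1 cells, and 9.37, 9.43, 9.57 and 9.84 in shTR1/shSep15 cells. No single-knockdown array read above 4.92 and no other array below 8.72, and the arrays of shTR1 agreed on this gene whatever their Txnrd1 signal. It fell by 4.57 in shSep15 cells (adjusted p = 3.56e-09) and by 4.70 in shTR1 cells (adjusted p = 2.36e-09), and differed by 0.33 with both hairpins (95% interval −0.03 to 0.70). The interaction was 9.60 (SE 0.24, adjusted p = 1.19e-11), and 9.52 without shTR1 replicates 2 and 4 (adjusted p = 4.89e-09).

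Lrrn4cl on chromosome 19 was the next largest among the genes lower in each single line. Control arrays read 7.54, 8.44, 10.59 and 7.23 and shTR1/shSep15 arrays 8.17, 7.97, 7.75 and 8.58, against 4.38, 4.60, 4.84 and 5.03 in shSep15 and 5.85, 4.91, 4.77 and 4.76 in shTR1 cells. The groups did not overlap, although control replicate 3 stood above the rest of its line. It fell by 3.73 (adjusted p = 0.00229) and by 3.38 (adjusted p = 0.0199) in shSep15 and shTR1 cells, with an interaction of 6.78 (SE 0.76, adjusted p = 0.000582).

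Tsnax encodes the partner protein of translin, a nucleic acid-binding factor. Its signal was 6.59, 5.42, 5.99 and 6.001 in control, 4.85 to 5.03 in shSep15, 4.63 to 4.996 in shTR1 and 6.07 to 6.27 in shTR1/shSep15 cells. Foxred2, an endoplasmic reticulum flavoprotein of the pathway that degrades misfolded proteins, read 4.63, 5.67, 4.78 and 4.76 in control and 4.44 to 4.87 with both hairpins, against 3.43 to 3.78 in shSep15 and 3.32 to 4.14 in shTR1 cells. Both genes fell in each single line, Tsnax by 1.06 (adjusted p = 0.00633) and 1.15 (adjusted p = 0.0176), Foxred2 by 1.34 (adjusted p = 0.0057) and 1.18 (adjusted p = 0.0476). Anxa8, a calcium-dependent membrane-binding annexin, did not overlap between groups either, with 4.07 to 5.45 in shSep15 and 4.84 to 5.28 in shTR1 cells against 5.48 to 6.58 in control and 5.52 to 6.96 with both hairpins. Its single differences of −1.32 and −1.11 did not pass (adjusted p = 0.0665 and 0.22), though its interaction of 2.67 did (adjusted p = 0.00934).

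For Gata2, a haematopoietic transcription factor, and Tmem119, a membrane protein known as a microglial marker, the groups touched. Gata2 fell in shSep15 cells from 7.31 to 7.98 in control to 5.70 to 6.04 (difference −1.71, adjusted p = 0.00136), while shTR1 cells read 7.09, 5.75, 6.77 and 6.25. Cells with both hairpins held 6.98 to 7.21, and the interaction was 2.35 (adjusted p = 0.00219). Without shTR1 replicates 2 and 4 the shTR1 difference of Gata2 was −0.63, which put it outside the class, and its interaction was 1.88 (adjusted p = 0.00318). Tmem119 read 6.42 to 7.34 in control, 5.12 to 5.41 in shSep15 and 6.17 to 7.00 with both hairpins, whereas shTR1 replicate 1, at 6.43, was within the control range and the other three were 5.13 to 5.76. Its interaction was 2.53 (adjusted p = 0.00333).

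Col3a1 (type III collagen) and Dppa4 (a chromatin protein of pluripotent and germ cells) were uneven in shTR1 cells. Dppa4 was 7.80, 8.45, 8.02 and 7.63 in control, 4.44, 4.94, 4.55 and 4.35 in shSep15 and 8.14, 7.65, 8.15 and 8.21 in shTR1/shSep15 cells. In shTR1 cells it read 8.54, 4.23, 7.87 and 6.10, so the arrays with Txnrd1 near control were those with low Dppa4. Its interaction of 4.76 (adjusted p = 0.0124) became 3.24 without these arrays (adjusted p = 0.00149), where the shTR1 difference was 0.23. Col3a1 fell by 3.04 in shSep15 cells (adjusted p = 0.0307), and shTR1 arrays read 7.95, 4.01, 5.48 and 4.29 against 6.84 to 8.32 in control. Its interaction was 4.98 (adjusted p = 0.0123), and 3.70 without shTR1 replicates 2 and 4 (adjusted p = 0.0497). Mfap5, a microfibril protein, and Col6a1 also passed, which with Col3a1 made 3 of the 22 matrix genes measured (13.6%, against 3.8% of all genes), with interactions of 2.52 and 1.26 (adjusted p = 0.0115 and 0.0427). With each array's upper quartile as a covariate neither Dppa4 (4.13, adjusted p = 0.0606) nor Col3a1 (4.44, adjusted p = 0.0583) passed.

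**Figure D4:**
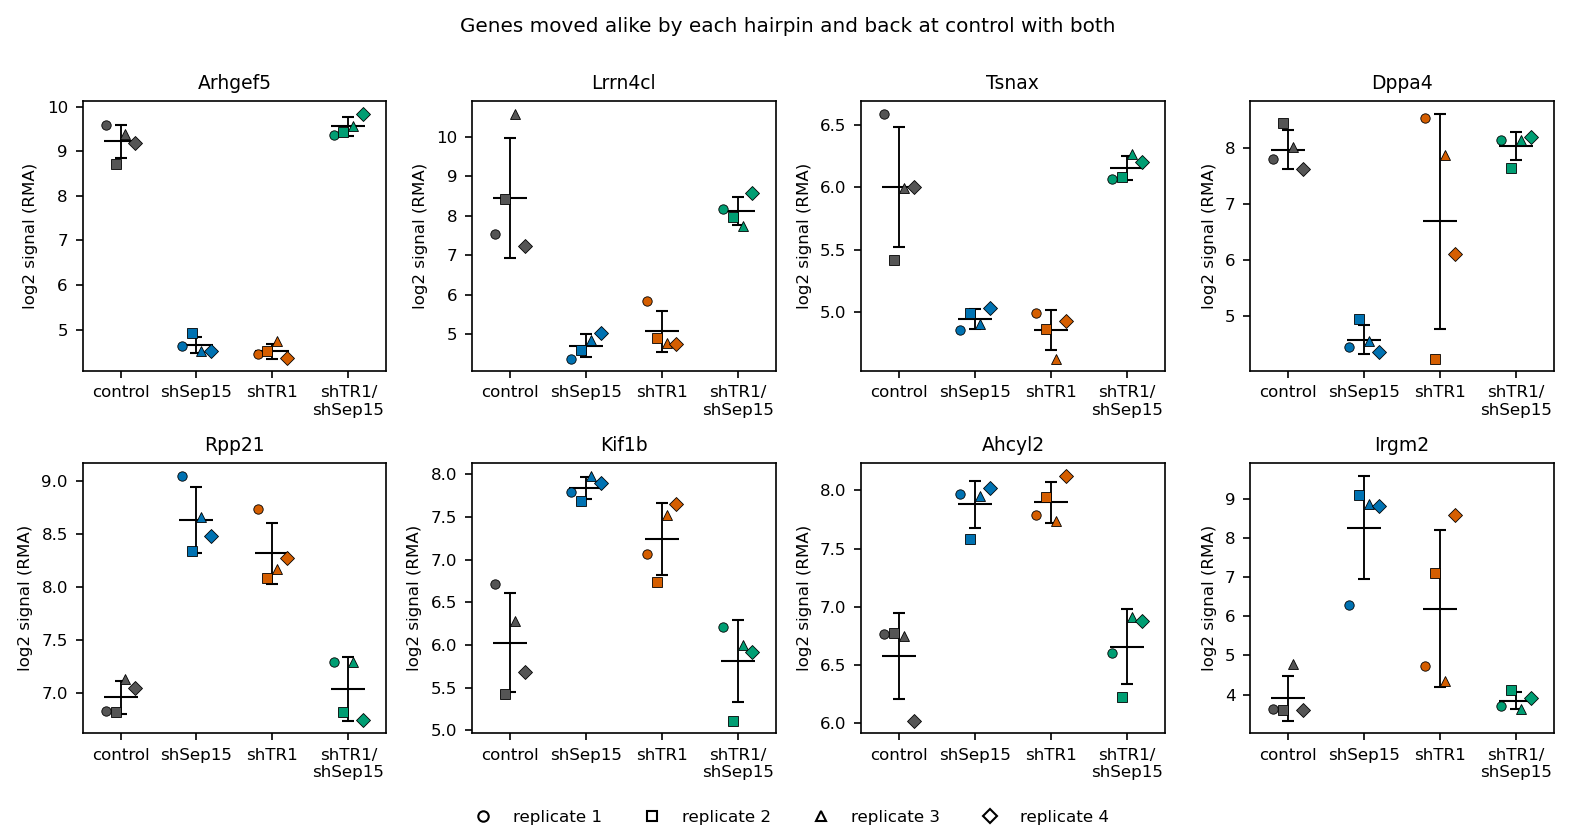
Log2 signal of 8 genes back at control with both hairpins in each of the 16 arrays (marker shape gives the replicate, bar and whiskers the mean ± SD, n = 4; vertical axes do not start at 0). Arhgef5, Lrrn4cl, Tsnax, Rpp21, Kif1b and Ahcyl2 do not overlap between the single knockdowns and the other lines, whereas shTR1 cells span the range of Dppa4 and Irgm2.

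Among the 73 probe sets of the class that were higher in each single line, 23 had no overlap between groups. Over the whole class 29 of 84 had none (34.5%), against 0.384% of all probe sets. That share follows in part from the class rule, which was drawn on the same differences. Rpp21, Kif1b, Ahcyl2 and Mta3 are described here as examples chosen after their values were seen. Rpp21, a protein subunit of ribonuclease P on chromosome 17, was 6.83 to 7.13 in control and 6.75 to 7.29 in shTR1/shSep15 cells, and 8.34 to 9.05 in shSep15 and 8.08 to 8.73 in shTR1 cells. It rose in each single line by 1.67 and 1.36, and was within 0.08 of control with both. Ahcyl2, a relative of adenosylhomocysteinase, rose by 1.30 and 1.32 and Mta3, a subunit of the NuRD deacetylase complex, by 1.15 and 1.01 at 1 of its 3 probe sets, while its brightest had an interaction of −0.90 (adjusted p = 0.196). Kif1b, a kinesin that carries organelles along microtubules, had an interaction of −3.25 with all 4 shTR1 arrays and of −3.30 without replicates 2 and 4 (adjusted p = 0.00502), at 1 of 2 probe sets in the class, while its brightest of 7 had an interaction of −0.64 (adjusted p = 0.62). By the stricter reading, in which each single line passed the test on its own and the line with both did not and had moved less than 50% of the smaller single change, 31 probe sets qualified, 23 higher and 8 lower, and 11 of them were among the 84. Ezh1, a histone methyltransferase of the Polycomb repressive complex, rose in each single line by that reading, by 1.06 and 1.23.

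The largest interactions among the higher genes were at interferon-inducible genes. Interferons act through JAK and STAT proteins to switch on antiviral genes, and type II interferon in particular induces guanylate-binding proteins and immunity-related GTPases. Irgm2, such a GTPase, was 3.64, 3.60, 4.77 and 3.60 in control, 6.29, 9.12, 8.87 and 8.82 in shSep15, 4.72, 7.10, 4.36 and 8.59 in shTR1, and 3.71, 4.13, 3.64 and 3.91 in shTR1/shSep15 cells. Gbp7, a guanylate-binding protein, was 3.15 to 5.89 in control, 6.29, 9.90, 9.75 and 9.86 in shSep15, 3.88, 6.05, 4.38 and 10.39 in shTR1, and 3.67 to 3.84 with both hairpins. In each, shTR1 replicates 1 and 3 read near control and replicates 2 and 4 higher, and shSep15 replicate 1 was the lowest of its line. Irgm2 rose by 4.37 in shSep15 cells (adjusted p = 0.0104), and its shTR1 difference of 2.29 did not pass (adjusted p = 0.28). The interaction was −6.72 (SE 1.13, adjusted p = 0.00616) at Irgm2 and −7.32 (SE 1.67, adjusted p = 0.0301) at Gbp7. Without shTR1 replicates 2 and 4 they were −5.06 (adjusted p = 0.0125) and −5.27 (adjusted p = 0.0577). The return to control was itself loosely measured at Gbp7, with a 95% interval of −2.80 to 2.25 for the difference with both hairpins, against −1.77 to 1.65 at Irgm2. It was also wide at other members, such as Col3a1 (−1.66 to 1.21), Dppa4 (−1.31 to 1.44) and Lrrn4cl (−1.48 to 0.82), and narrower at Tsnax (−0.22 to 0.53). Being within 0.5 of control thus describes the means only.

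Antiviral effectors and their regulators followed. Bst2 (tetherin, which holds budding virus at the membrane) was 7.74 to 8.34 in control and 8.20 to 8.34 in shTR1/shSep15 cells, 8.95, 10.61, 11.37 and 11.60 in shSep15 and 8.19, 10.88, 8.66 and 11.20 in shTR1 cells. Eif2ak2 (the RNA-activated kinase PKR) was 6.52 to 7.58 in control, 8.38 to 10.13 in shSep15, 7.56, 8.49, 7.995 and 10.05 in shTR1, and 6.44 to 7.33 with both hairpins. At Bst2 neither single difference passed (adjusted p = 0.0523 and 0.321). Eif2ak2 rose by 2.23 in shSep15 cells (adjusted p = 0.0244), but its shTR1 difference of 1.31 did not pass (adjusted p = 0.3). The interaction at Eif2ak2 was −3.98 (adjusted p = 0.00614). Dtx3l, a ubiquitin ligase, had an interaction of −4.18 (adjusted p = 0.0149), and Ifi207, of the interferon-inducible p200 family, −4.09 (adjusted p = 0.0142). Sike1, a suppressor of IKK-epsilon and TBK1, rose by 2.53 in shSep15 cells (adjusted p = 0.00205), with an interaction of −3.75 (adjusted p = 0.00192), and of −1.42 at its brightest probe set (adjusted p = 0.022). Without shTR1 replicates 2 and 4, the interaction no longer passed at Bst2 (−2.73, adjusted p = 0.0832) or Dtx3l (−3.04, adjusted p = 0.0555). It still passed at Eif2ak2 (−3.23, adjusted p = 0.0177), Ifi207 (−3.42, adjusted p = 0.0426) and Sike1 (−3.25, adjusted p = 0.0109). The other class probe sets went the other way in that fit. Dtx3l passed there (−2.94, adjusted p = 0.0289) and Eif2ak2 did not (−2.65, adjusted p = 0.199).

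Outside the interferon lists, Eif4g3, Ccnb1ip1 and Dmxl2 were among the 10 largest. Eif4g3, a scaffold of the translation initiation complex, read 3.42 to 4.06 in control, 6.95 to 7.29 in shSep15, 3.70, 6.83, 4.29 and 6.23 in shTR1 and 3.55 to 4.66 with both hairpins. Its interaction of −4.87 (adjusted p = 0.00393) was seen at 1 of its 4 probe sets, and at the brightest the interaction was −0.07 (adjusted p = 0.848). Ccnb1ip1, a ubiquitin ligase of meiotic crossing over, rose by 2.77 in shSep15 cells (adjusted p = 0.0162), while shTR1 cells read 4.74, 7.59, 4.83 and 6.84. Without shTR1 replicates 2 and 4 the shTR1 difference was 0.30 at Eif4g3 and 0.28 at Ccnb1ip1, so both left the class. Their interactions still passed in that fit (−3.60 and −3.12, adjusted p = 0.00151 and 0.0114). Dmxl2, a partner of the vesicular proton pump, differed in that all 4 shTR1 arrays, from 6.31 to 7.43, lay above the control range of 3.98 to 5.57. It was 4.87 to 6.90 in shSep15 and 3.67 to 5.12 with both hairpins, and its interaction was −4.02 (adjusted p = 0.00607). The probe set with the largest interaction of the class, −10.54 (adjusted p = 0.00699), had no single gene symbol here. It could therefore not be placed inside or outside the interferon lists. Its shTR1 arrays read 3.76, 8.04, 4.15 and 11.35, against 3.32 to 3.78 in control, so they split as at Irgm2 and Gbp7.

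The 3 lists of interferon-related genes were read as a whole, each gene at its probe set of highest mean. Of 36 interferon-stimulated genes measured, 12 passed with an interaction below 0 and none above 0, where 2.75% of all genes passed below 0. Their median interaction was −3.08 and all 36 were below 0, against 41.9% of all genes. Of 10 interferon-gamma-inducible GTPases, 4 passed (Gbp2, Gbp7, Igtp and Irgm2) with a list median of −5.77, and of 13 class I antigen presentation genes 3 passed (B2m, H2-D1 and Tapbp) with a median of −1.09. The mean signal of the 36 genes was 6.06, 7.66, 6.16 and 5.85 in control, 6.56, 9.04, 8.60 and 8.72 in shSep15, 6.17, 7.76, 6.17 and 8.997 in shTR1, and 5.78, 5.49, 5.88 and 5.77 in shTR1/shSep15 cells. Replicate 1 was low in shSep15 cells, replicate 2 was high in control cells, and the line with both hairpins was the lowest on average and the most even. The medians of the differences over the list were 1.65 with shSep15, 0.58 with shTR1 and −0.57 with both.

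Other genes of these lists passed without meeting the class rule. Usp18, Xaf1, Parp14, Trim30a, Gbp2 and Igtp lay more than 0.5 under control with both hairpins, though none of these differences passed (adjusted p = 0.46 to 0.943), and the class I genes below had single differences under 1. Usp18, the protease that removes ISG15, was 3.73, 4.996, 4.79 and 3.78 in control, 7.84, 11.39, 10.90 and 11.27 in shSep15, 4.68, 10.47, 6.40 and 11.73 in shTR1, and 3.54 to 3.77 with both hairpins. It rose by 6.03 in shSep15 cells (adjusted p = 0.0187), and its interaction was −10.71 (SE 1.72, adjusted p = 0.00504). Xaf1, an interferon-induced partner of the apoptosis inhibitor XIAP, had an interaction of −7.17 (adjusted p = 0.00944) and Parp14, a mono-ADP-ribosyltransferase, −5.11 (adjusted p = 0.032). Trim30a, a regulator of Toll-like receptor signalling, was 5.92 to 7.77 in control and 4.43 to 4.998 with both hairpins, a difference of −1.98, beside an interaction of −4.46 (adjusted p = 0.0209). Gbp2, a guanylate-binding protein, was −6.73 (adjusted p = 0.0329), and Igtp, an immunity-related GTPase, −5.52 (adjusted p = 0.0239). In class I presentation, the heavy chain gene H2-D1 had an interaction of −1.35 (adjusted p = 0.00746), its partner B2m −0.85 (adjusted p = 0.0452) and Tapbp, the peptide-loading factor tapasin, −2.36 (adjusted p = 0.0342). Parp14, Tapbp and B2m did not pass without shTR1 replicates 2 and 4 (adjusted p = 0.127, 0.133 and 0.209).

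The promoters of the class were searched on both strands for GAAANNGAAA, the core letters of the interferon-stimulated response element, in RefSeq windows (build GRCm38.p6) from 250 bases before to 50 after the gene start. Of the 59 genes higher in the single knockdowns, 49 had a window, and 7 of these (14.3%) held the motif. Of all 14452 genes of the array with a window, 3.63% held it, and of the 9 genes lower in the single knockdowns 5 had a window and none held it. An upstream match in each of 5 members of the class is shown so that the letters around the motif can be compared, with the motif in capitals and each sequence on the strand of its gene. In Gbp7 and Parp11 the motif lies on the other strand and reads as its reverse complement.
Irgm2, chr11:58214903-58214932, + strand: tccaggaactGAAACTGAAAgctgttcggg
Bst2, chr8:71537577-71537606, − strand: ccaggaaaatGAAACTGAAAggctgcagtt
Ifi207, chr1:173741831-173741860, − strand: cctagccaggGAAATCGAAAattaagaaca
Gbp7, chr3:142530273-142530302, + strand: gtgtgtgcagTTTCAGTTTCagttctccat
Parp11, chr6:127446786-127446815, + strand: ttccttttagTTTCGATTTCttggaacccg
Irgm2, Bst2 and, on the other strand, Gbp7 held the same letters, GAAACTGAAA. The motif began 64 bases before the start of Irgm2 and 124 before that of Bst2. Ggps1 and a further match in Bst2 were also upstream and are not printed, and the match in Eif2ak2 lay after the gene start. A match is a description of the letters only.

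Other probe sets of the same genes gave a further reading of the same mRNA samples. The 68 genes had 87 probe sets outside the class, in 41 genes. The interaction had the same direction as the member of the class at 74 of the 87 and the opposite at 13. Of the 87, 18 passed in the same direction (20.7%) and none in the opposite. Of all probe sets, 2.85% passed, 2.11% below 0 and 0.735% above 0. For 9 genes, at least 2 probe sets were in the class, Ifi35 with 3, and Kif1b, Nras, Crbn, Helz, Trim25, Dtx3l, Eif2ak2 and Anxa8 with 2 each.

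The other called probe sets differed in how the lines stood to control. A change in shSep15 cells that was absent with shTR1 and with both hairpins was found at 127 probe sets, 87 of them with an interaction below 0. Krt20, an intestinal keratin, was 7.55 to 9.49 in control, 4.76 to 5.32 in shSep15, 7.15 to 9.24 in shTR1 and 7.95 to 9.06 in shTR1/shSep15 cells. It fell by 3.28 in shSep15 cells (adjusted p = 0.00155), with an interaction of 3.94 (adjusted p = 0.00483). It was the only one of 20 keratin and junction genes to pass (5%), where 3.8% of all genes passed. Nefm, the medium neurofilament subunit, fell by 3.63 (adjusted p = 0.0046), and its interaction was 4.43 (adjusted p = 0.0103). Bank1, a B-cell adaptor protein, rose by 3.06 (adjusted p = 0.00595), though shSep15 replicate 1, at 4.02, stood apart from 6.54 to 6.95 in the other replicates. Atp8a1, a phospholipid flippase, rose by 2.63 (adjusted p = 0.00128) at a probe set where control cells read 2.44 to 2.66, and its brightest probe set had an interaction of −0.02 (adjusted p = 0.958).

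The reverse, a change in shTR1 cells alone, was found at 4 probe sets, all higher. Ahnak, a giant scaffold protein, was 11.65, 11.93, 12.01 and 11.89 in shTR1 cells against 10.32 to 11.15 in control and 10.55 to 10.98 with both hairpins. It rose by 1.12 (adjusted p = 0.0392), and Rab31, a GTPase of vesicle traffic, by 1.03 (adjusted p = 0.00669) and Rgs17, a regulator of G protein signalling, by 1.23 (adjusted p = 0.0103). Bbs4, a subunit of the ciliary BBSome, was higher by 1.13 without passing (adjusted p = 0.113), and its interaction did not pass at its brightest probe set (−1.92, adjusted p = 0.0606). For these genes the shTR1 arrays with Txnrd1 near control did not differ from the others in direction.

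A change with both hairpins and with neither singly was found at 7 probe sets. Cpn1, the catalytic chain of carboxypeptidase N, was 3.87 to 4.68 in control, 4.05 to 4.70 in shSep15, 4.04 to 4.79 in shTR1 and 6.37, 6.18, 6.48 and 5.79 in shTR1/shSep15 cells. It rose by 1.84 with both hairpins (adjusted p = 0.00409). Prkx, a kinase encoded on chromosome X, read 6.93 to 8.20 in control and 5.70, 5.07, 5.55 and 5.45 with both hairpins, and fell by 2.03 (adjusted p = 0.0125). Gamt, the last enzyme of creatine synthesis, and Yipf6, a Golgi membrane protein, differed by 1.17 and −1.23 with both hairpins without passing (adjusted p = 0.252 and 0.264), with interactions of 1.77 and −1.78 (adjusted p = 0.023 and 0.0335). At the brightest probe set of Yipf6 the interaction was −0.07 (adjusted p = 0.907).

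At 15 probe sets all 3 lines differed from control by at least 1 to the same side, so that the interaction came from a change with both hairpins smaller than the sum of the single changes. Dppa2, the partner protein of Dppa4, was 8.27, 8.60, 8.34 and 7.37 in control, 3.29 to 4.10 in shSep15, 2.89 to 4.15 in shTR1 and 3.20 to 5.54 in shTR1/shSep15 cells. It fell by 4.41, 4.64 and 4.21 (adjusted p = 0.00015, 0.0003 and 0.00103), and its interaction was 4.83 (adjusted p = 0.0015). The means of the single lines, 3.74 and 3.51, were already under the array medians, so a fall by the sum of the single changes could not have been read. The interaction at Dppa2 cannot be told apart from this limit. Dppa4 and Dppa2, neighbours on chromosome 16, thus differed with both hairpins, where Dppa4 read at its control level and Dppa2 did not. Klf2, a Krüppel-like transcription factor, was 8.37 to 10.97 in control, 4.41 to 4.62 in shSep15, 5.79 to 7.74 in shTR1 and 7.02 to 7.37 with both hairpins, with an interaction of 4.99 (adjusted p = 0.00205). Tshz1, a zinc finger factor, and Clu, the secreted chaperone clusterin, had interactions of 2.73 (adjusted p = 0.00419) and 3.00 (adjusted p = 0.0442). With both hairpins the differences of Klf2 (−1.97), Tshz1 (−1.58) and Clu (−1.49) did not pass on their own (adjusted p = 0.265, 0.143 and 0.491), nor did the shTR1 differences of Klf2 and Clu (adjusted p = 0.0715 and 0.136).

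Afp (alpha-fetoprotein) had the largest positive interaction after Arhgef5. It was 9.70, 9.58, 9.47 and 9.31 in control, 3.67, 2.71, 3.59 and 3.64 in shSep15, 11.13, 6.93, 6.75 and 8.57 in shTR1, and 10.07 to 10.28 in shTR1/shSep15 cells. It fell by 6.11 in shSep15 cells (adjusted p = 0.000293), and shTR1 arrays lay on each side of the control arrays. The interaction was 7.95 (SE 0.95, adjusted p = 0.000906). Afp and Clu were the genes that passed among 9 oncofetal and plasma protein genes (22.2%), where 3.8% of all genes passed. Among 15 pluripotency and germline genes Dppa2 and Dppa4 passed (13.3%), Dppa2 with the limit of low signal given above.

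In the selenoprotein list, 3 of 23 genes measured passed (13%), where 3.8% of all genes did. Selenop, the plasma selenium carrier, was 3.13 to 3.54 in control, 4.52 to 5.86 in shSep15 and 3.19 to 3.75 with both hairpins, rose by 1.96 in shSep15 cells (adjusted p = 0.000904) and had an interaction of −1.95 (adjusted p = 0.00794). Selenos, an endoplasmic reticulum selenoprotein, had an interaction of −1.25 (adjusted p = 0.028), and Sephs2, which makes the selenium donor for selenocysteine, 1.91 (adjusted p = 0.0188). No gene passed among 21 Nrf2 target and glutathione genes (4 at an unadjusted p under 0.05, median interaction 0.36, Gstm1 largest at 1.62, adjusted p = 0.154) or among 25 endoplasmic reticulum folding genes (4 at an unadjusted p under 0.05, median −0.25, Ero1a at 1.69, adjusted p = 0.106).

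Proliferation genes varied within lines. The counts in the lists that follow stand beside the 3.8% of all genes that passed. Of 24 G2 and mitosis genes 2 passed (8.33%), Ccnb1ip1 below 0 and the phosphatase gene Cdc25c above 0 (2.13, adjusted p = 0.0025), and none of 24 S-phase genes did (2 at an unadjusted p under 0.05, Rrm2 at 1.51, adjusted p = 0.223). The G2 and mitosis list had a median interaction of 0.80, but its mean signal in control cells was 9.36, 7.46, 7.80 and 9.20, and in shTR1 cells 7.71, 9.30, 8.86 and 8.11, so that arrays of 1 line differed by more than the median interaction. Among 22 caspase and apoptosis genes 2 passed (9.09%), Casp6 below 0 (−1.52, adjusted p = 0.0317) and Fadd above 0 (0.70, adjusted p = 0.0343), and Fadd did not pass with an intensity trend (adjusted p = 0.122), after median centring (adjusted p = 0.0616) or with the upper quartile covariate (adjusted p = 0.0677). Of 36 Wnt ligands, receptors and inhibitors the receptor Fzd7 passed (2.78%, interaction 1.49, adjusted p = 0.0125), and of 18 Wnt target genes none (1 at an unadjusted p under 0.05, Tcf7l2 at 0.78, adjusted p = 0.632). Il6st, the shared receptor chain of the interleukin-6 family, passed among 23 cytokine receptors (4.35%, interaction −2.00, adjusted p = 0.00713), and Klf2 among 14 Krüppel-like factors (7.14%). None passed among 7 leukocyte markers (1 at an unadjusted p under 0.05, Cd79a at 0.49) or 5 endothelial markers (none at an unadjusted p under 0.05, Vwf at 0.36).

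Called genes were spread unevenly over the chromosomes. On chromosome 3, 109 of 913 genes (11.9%) were called with an interaction below 0 and none with an interaction above 0. Chromosomes 13 and 17 followed with 7.26% and 7.19% called below 0, against 2.75% of all genes, and chromosome 17 also had none called above 0. Chromosome 18 had 3.28% and chromosome X 3.08% called above 0, against 1.05% of all. On chromosome 3, which carries Selenof, the median difference of all genes was 0.09 in shSep15 cells, −0.02 in shTR1 cells and 0.005 with both hairpins. On chromosome 17 it was 0.06, 0.07 and 0.035. Of the named probe sets of the class that were higher in the single knockdowns, 13 lay on chromosome 17, 11 on chromosome 11, 7 each on chromosomes 3 and 6, and 6 on chromosome 4. These counts hold several probe sets of the same gene and are not set against chromosome size. On chromosomes 11 and 6 only 1.59% and 1.61% of genes were called below 0, under the 2.75% of all genes, and on chromosome 4 3.22% were.

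**Figure D5:**
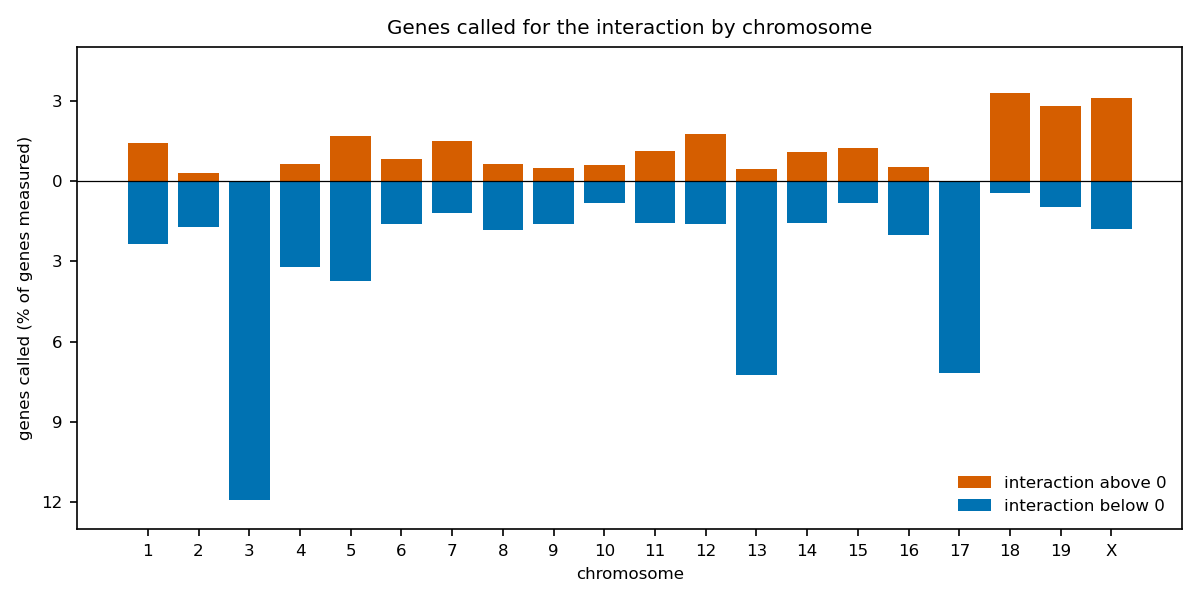
Percent of the genes measured on each chromosome that were called for the interaction, above 0 (upward bars) and below 0 (downward bars), each gene at its probe set of highest mean signal. Chromosome 3 has the longest bar below 0, at 11.9%, followed by chromosomes 13 and 17, and chromosomes 3 and 17 have no bar above 0.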

How the data were processed

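Total mRNA from 16 samples, 4 of each line, was hybridised to Affymetrix mouse expression arrays. The authors deposited log2 signals summarised per probe set by RMA, per the labels and the study's methods, and these log2 values were used as deposited. RMA subtracts background, quantile-normalizes the arrays and summarises probes, so a shift shared by all genes of an array cannot be seen in full. The deposited arrays still differed in upper quartile, from 6.35 to 6.76, so their distributions were not equal. Whether a line's 4 samples were grown apart is not given in the sources used here, and p-values reflect only how far these samples vary, which may be technical. The number of arrays, 4 per line, limits the precision.

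Of 45101 probe sets, 64 controls were left out and 45037 tested. The platform annotation, updated through RefSeq gene numbers (GRCm38.p6), gave 34945 of them 1 symbol, 932 several and 9160 none. Chromosomes come from that assembly, since the files name no build. limma 3.58.1 in R 4.3.3 fitted a mean for each line, without filter or covariate, and the interaction and each line's difference from control were tested with moderated variances (12 residual and 2.58 prior degrees of freedom) and Benjamini-Hochberg adjustment over all probe sets at 0.05. All tests were two-sided. The study's methods compared lines by ANOVA, which this test moderates, and an unmoderated contrast was run as an alternative. The script was tested on simulated data. Figures were drawn with matplotlib 3.10.9.

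Named genes were the targeted genes, up to 10 genes lower and 10 higher of those back at control, up to 4 of each other class by the largest interaction, and up to 4 called genes of each list (or the largest where none was called). Members and gene lists were chosen with earlier results of these data known, so lists and classes are described by counts and medians and not tested. The result of 1 list is not reported here. Alternatives were an intensity trend, array weights, the unmoderated contrast, bright probe sets, median centring, further quantile normalization, a minimum interaction of 1, the replicate number as a block, other class bounds, and leaving out arrays. The fit with each array's upper quartile as a covariate was added after seeing the data.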

Additional observations from a re-analysis of the deposited data

Results flagged for a closer look

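The interaction itself is a difference between effects of 1 hairpin in the presence and absence of the other, and it passed at 1282 probe sets. Among 264 sets of 4 arrays (66 probe sets of named genes in 4 lines), 27 had an array standing apart from the other 3 by Dixon's test, 10.2%, where chance gives about 1 in 20. Values are log2 signals.

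In shSep15 cells, replicate 1 was low at Irgm2 (6.29), Trim30a (7.47), Usp18 (7.84), Gbp7 (6.29), Dtx3l (7.21), Xaf1 (8.69), Nefm (5.02) and Bank1 (4.02). Replicate 2 of that line was low at Afp (2.71) and high at Col3a1 (5.17).

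In control cells, replicate 2 was high at both probe sets of Gbp2 (7.01 and 6.06), Foxred2 (5.67) and Klf2 (10.97) and low at Sephs2 (7.39), and replicate 3 was high at Irgm2 (4.77).

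In shTR1 cells, replicate 1 was high at Lrrn4cl (5.85), replicate 2 at Gamt (6.07), and replicate 4 at Atp8a1 (4.37) and Selenop (3.57), while replicate 3 was low at Rgs17 (4.54).

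In shTR1/shSep15 cells, replicate 2 was low at Igtp (5.28), Dppa4 (7.65), Il6st (6.19) and Yipf6 (4.58) and high at Eif4g3 (4.66), and replicate 4 was high at Dppa2 (5.54).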

How the results depend on the processing

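Total, positive and negative calls were 4462, 1503 and 2959 with array weights (193 probe sets back at control), 744, 211 and 533 with the unmoderated contrast, and 6923, 2882 and 4041 with its unadjusted p. They were 519, 154 and 365 without shTR1 replicates 2 and 4 (38 back at control), and 714, 331 and 383 with the upper quartile covariate (31 back at control), a fit chosen after seeing the data. The class held 437 probe sets with bounds of 1.5-fold and 31 when each single knockdown had to pass on its own. Leaving out 1 array at a time gave 656 to 2340 calls, 185 to 766 positive and 460 to 1574 negative, and 50 to 164 back at control. The highest values came without control replicate 2, apart from the class (shTR1 replicate 1), and the lowest without shSep15 replicate 3 or 4, apart from the class (control replicate 4). The positive calls also moved by over 1.5 times without control replicate 4, shTR1 replicate 4 and each shTR1/shSep15 replicate in turn. The negative calls did so without control replicate 4, shTR1 replicate 4 and shTR1/shSep15 replicates 1, 2 and 4. The intensity trend, bright probe sets, median centring, quantile normalization and a minimum interaction of 1 kept these 4 counts within 1.5 times. With the replicate number as a block the counts were 1130, 270 and 860, with 75 back at control. The numbers did not pair the arrays, since same-numbered arrays correlated by −0.53 to 0.47 and had the same number as best partner in 10 of 48 cases. With the upper quartile covariate the uncalled marker genes Cd79a and Vwf turned sign (−0.10 and −0.03), and 22 of 66 named probe sets lost their call, against 26 without shTR1 replicates 2 and 4 and 18 with the unmoderated contrast. The cause was not tested. Probe sets at the lowest signals have little room to fall, which limits differences there.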
